A study of Mus musculus with 25 samples.

Results

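The RNA of whole sciatic nerve from C3 mice was compared with that of their C57BL/6J controls, WT-C3, in 10 of the 25 libraries of the series, 5 of each group. The members were chosen by the sample labels alone. C3 mice carry the transgene of B6.Cg-Tg(PMP22)C3Fbas/J, which holds several extra copies of the human PMP22 gene on a C57BL/6J background, and the line arose from the C22 line as a spontaneous partial revertant. No animal was treated. There was 1 library per group at each age of 3, 5, 7, 9 and 12 weeks, and each was made from a pool of the nerves of 4 to 5 males and females, so the ages served as the replicates. Every SD, standard error (SE) and p-value below therefore measures the spread between pools of different ages. The other libraries came from C22 mice, their FVB/NRJ controls WT-C22, and C3 mice whose Schwann cells lack c-Jun, and the C22 and WT-C22 libraries are used only where the C3 change is set beside the C22 change. The comparison asked which genes other than lipid enzymes changed with the extra PMP22 copies in nerve.

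PMP22 is a small membrane protein of compact myelin, the sheath that Schwann cells wrap around the large axons of peripheral nerve. A duplication of its gene causes Charcot-Marie-Tooth disease type 1A, a demyelinating neuropathy, and mice with extra copies of human PMP22 are its models. A myelinating Schwann cell makes myelin under the control of Sox10, Pou3f1 and Egr2. An immature Schwann cell, or a repair Schwann cell that has left the myelinating state after injury, uses other genes, among them Sox2, Jun, Ngfr and Gfap.

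The C3 libraries held between 2140142 and 49072746 counts on genes (median 26226737) and the WT-C3 libraries between 9001002 and 16264172 (median 13416665). Levels are given in CPM, counts scaled to a common library size, after adjustment by the trimmed mean of M-values (TMM), and series of 5 values run from the youngest to the oldest age. CPM do not account for transcript length, so levels are compared between groups and not between genes. The C3 library at week 9 was the shallow one. It stood apart on the second principal component (25.7% of the variance), whereas the first (37.3%) separated the 5 C3 from the 5 WT-C3 libraries. Its counts on mitochondrially coded genes were 1.21% of the total, against 2.08% to 2.42% in the other C3 libraries. Of the 15 human genes in the table, ENSG00000109099 had 466441, 355400, 664778, 25600 and 245095 counts in C3 and 82, 50, 18, 10 and 42 in WT-C3. The human gene ENSG00000125409 had between 41 and 879 counts in each C3 library and 0 in each WT-C3 library. The table does not pair these identifiers with symbols, and reads of a human gene and its mouse counterpart can be confused where the sequences are alike.

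A gene was tested if its log2 CPM was above 1 in at least 7 of the 25 libraries, which kept 13993 genes. It was called higher or lower at an adjusted p under 0.05 in the quasi-likelihood test of edgeR with Benjamini-Hochberg adjustment over all of them. In C3, 1743 genes (12.5%) were higher, 4 of them human, and 1602 (11.4%) were lower. Most changes were small, with a median log2 fold change of 0.474 among the genes called higher and -0.513 among those called lower. A change of at least 1 on the log2 scale was found for 311 of the higher and 204 of the lower genes. The groups did not overlap for 2492 genes (17.8% of those tested). Of the 1743 higher and 1602 lower genes, 3140 had the same direction at 5 of 5 ages. The test favours such genes, since the ages served as its replicates. Higher genes made up 52.1% of the calls with TMM and 71.4% with library size as the only scaling, under which the median log2 fold change of all genes moved from 0.00105 to 0.0764. The counts below are read against the shares of 12.5% and 11.4%. In whole nerve, fewer cells of a type and less RNA per cell cannot be told apart.

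**Figure D1:**
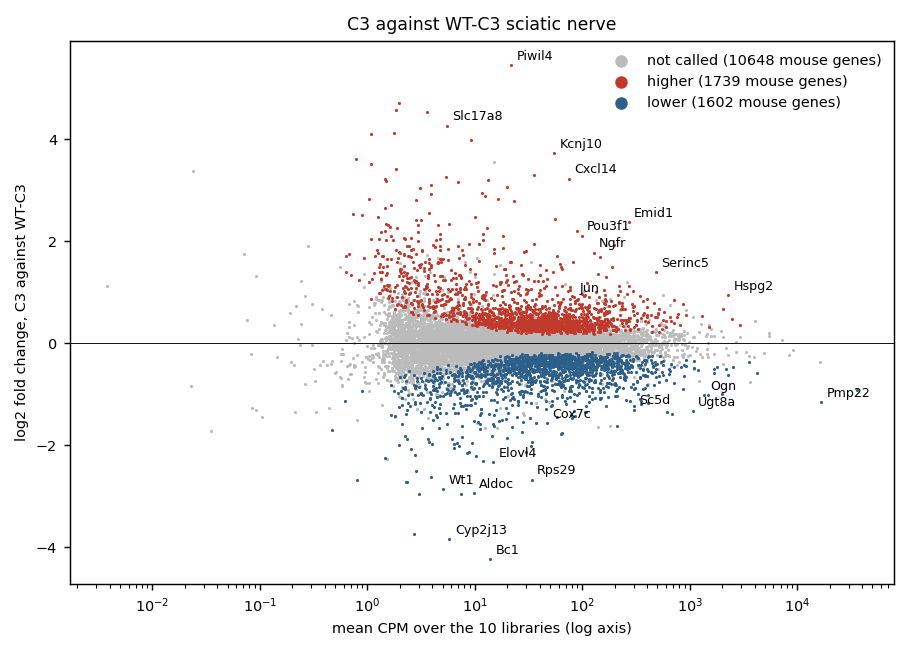
Log2 fold change of C3 against WT-C3 (vertical axis) by mean CPM over the 10 libraries (horizontal, log axis) for the 13989 mouse genes tested, with 1 point per gene, red for higher and blue for lower calls. Piwil4 stands alone at the top and Pmp22, far to the right, lies below 0.

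The largest rise among mouse genes of at least 5 CPM was that of Piwil4 (ENSMUSG00000036912, chromosome 9 from 14607526 to 14652036 of GRCm39), a member of the Piwi family of small RNA binding proteins best known in the germline. Piwil4 was at 52.0, 42.4, 35.6, 43.7 and 39.9 CPM in C3 and at 1.61, 1.096, 0.680, 0.784 and 0.666 CPM in WT-C3. All C3 libraries were far above all WT-C3 libraries, a 43.6-fold difference (log2 fold change 5.45, SE 0.21, edgeR adjusted p = 6.91e-08). Kcnj10 (ENSMUSG00000044708, chromosome 1 from 172168765 to 172201652), the potassium channel Kir4.1 of glia, was at 148, 117, 94.0, 84.3 and 63.5 CPM in C3 and at 12.7, 9.32, 7.71, 4.55 and 4.36 CPM in WT-C3. It was 13.3-fold higher in C3 (edgeR adjusted p = 3.68e-05) and declined with age in both groups. Cxcl14 (ENSMUSG00000021508, chromosome 13 from 56436352 to 56444603), a chemokine, was at 174, 149, 129, 140 and 91.3 CPM in C3 against 5.85, 10.1, 14.1, 21.1 and 21.4 CPM in WT-C3. The 9.37-fold rise was widest at 3 weeks, since C3 was highest and WT-C3 lowest there.

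The other genes among the 15 largest rises had several kinds of function. Tubb3, a tubulin best known in neurons, rose 7.12-fold, with 20.2 to 36.8 CPM in C3 and 3.54 to 4.62 CPM in WT-C3. The signalling proteins among them included the epidermal growth factor receptor ligand Btc (8.95-fold) and the morphogen Shh (5.59-fold). For Shh the groups came closest at 12 weeks, where C3 had 10.1 and WT-C3 6.54 CPM. Slc17a8, a vesicular glutamate transporter, rose 19.2-fold and the proton channel Otop1 9.9-fold. Among the others were the bile acid receptor Nr1h4 (9.63-fold), the adhesion receptor Adgrb1 (7.4-fold), the cadherin Cdh6 (6.94-fold), the phosphatase subunit Ppp2r2c (7.67-fold) and the enzyme Gadl1 (15.9-fold), which in C3 had 28.3 CPM at 3 weeks and 6.43 at 12 weeks. The predicted gene Gm49304 rose 9.17-fold. All 15 were higher at every age, which was a condition of their choice. Their groups did not overlap, and each kept its call in every setting tried. Choosing the largest of the called changes favours both.

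The 250 bases before the start site were searched for TGANTCA, a loose form of the AP-1 motif in which N is any base. This pattern reads the same on both strands, and was chosen because the AP-1 factor Jun is among the genes that rose in C3. Windows were taken from the RefSeq table of GRCm38.p6, where 11 of the 15 largest rises, 10 of the 15 largest falls and 8 of the 12 repair Schwann cell genes called higher were matched. The motif was in 1 of 13 windows of the rises, in 1 of 13 of the falls and in 1 of 8 of the repair genes, against 6.75% of all 32841 windows. The octamer ATGCAAAT, searched on both strands for the POU factors, was in none of these windows and in 1.6% of all. A match is a description of the letters and not of binding. The windows of Piwil4 and of the repair gene Cxcl10 are shown, since these are the rises that match the pattern, here in capitals. The match is TGATTCA in Piwil4 and TGAGTCA in Cxcl10. The Bfsp2 window holds the match of the falls, also TGATTCA, and is not printed. Both genes shown are on the minus strand, with Piwil4 at chr9:14718388-14718637 and Cxcl10 at chr5:92348890-92349139 of GRCm38.p6.
Piwil4: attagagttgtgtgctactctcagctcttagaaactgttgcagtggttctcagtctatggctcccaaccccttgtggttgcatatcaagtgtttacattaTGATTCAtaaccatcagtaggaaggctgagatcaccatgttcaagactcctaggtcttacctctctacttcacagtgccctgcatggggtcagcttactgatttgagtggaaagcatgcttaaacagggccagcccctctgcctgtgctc
Cxcl10: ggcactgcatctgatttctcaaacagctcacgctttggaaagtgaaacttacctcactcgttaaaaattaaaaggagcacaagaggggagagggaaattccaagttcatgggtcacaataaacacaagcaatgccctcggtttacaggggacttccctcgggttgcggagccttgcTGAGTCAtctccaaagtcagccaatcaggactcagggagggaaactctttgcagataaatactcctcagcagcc

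Of the 15 largest falls, Cyp2j13, a cytochrome P450, was at 1.16, 0.988, 0.736, 0 and 0.249 CPM in C3 and at 12.9, 13.7, 9.18, 10.8 and 8.30 CPM in WT-C3 (14.3-fold lower, edgeR adjusted p = 5.14e-05). In the C3 library at week 9, 3 counts correspond to 1.4 CPM, so the value of 0 there lies under the limit of detection. Aldoc, a glycolytic aldolase, fell 7.69-fold, from between 9.45 and 26.1 CPM in WT-C3 to between 0.901 and 3.73 CPM in C3. Wt1, a zinc finger transcription factor, was at 0.901 to 1.41 CPM in C3 and at 5.31 to 14.2 CPM in WT-C3, a 7.26-fold fall. The lowest C3 values of Aldoc and Wt1, 0.901 CPM, are also under the 1.4 CPM of 3 counts in the C3 library at week 9. Elovl4 (ENSMUSG00000032262, chromosome 9 from 83660744 to 83688430), which elongates very long chain fatty acids, was at 5.07, 6.46, 5.63, 2.25 and 3.40 CPM in C3 and at 22.8, 28.6, 21.3, 29.0 and 22.5 CPM in WT-C3. Every C3 library lay under every WT-C3 library for each of these genes. Bfsp2, a lens filament protein, fell 4.36-fold, the secretory chaperone Scg5 4.04-fold and Nalf2, a protein associated with a sodium leak channel, 3.9-fold, and their groups did not overlap either. Etnppl, an enzyme that breaks down phosphoethanolamine, was called lower (log2 fold change -2.96, edgeR adjusted p = 0.0449), but its groups overlapped. The call was lost, at adjusted p values of 0.0536 to 0.131, without any 1 of the C3 libraries at weeks 3, 5, 7 and 9 or the WT-C3 libraries at weeks 7, 9 and 12.

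The other 7 of the largest falls came from short transcripts. Rps29, a ribosomal protein whose canonical transcript has 498 bases, was at 3.85, 3.53, 2.98, 44.2 and 10.9 CPM in C3 and at 50.2, 38.0, 52.0, 54.4 and 76.4 CPM in WT-C3. The C3 library at week 9 lay within the WT-C3 range and the other 4 lay far under it. Rpl38 (502 bases), Rps28 (382 bases), the noncoding RNA Bc1 (176 bases) and the mitochondrially coded mt-Atp6 (681 bases) showed the same order of libraries, with 36.1, 43.7, 21.2 and 18.0 CPM in the C3 library at week 9 and at most 14.9, 17.4, 0.684 and 4.28 CPM in the other C3 libraries. For Atp5me, an ATP synthase subunit of 371 bases, and for Ifitm2, an interferon-induced membrane protein of 990 bases, the groups did not overlap. The call of Bc1 (edgeR adjusted p = 0.0175) was lost with DESeq2 (0.127), with the likelihood ratio test of edgeR (0.079), without both 3-week libraries (0.0656) and without the C3 library at week 5 (0.0566) or 7 (0.0504). That of mt-Atp6 was lost after thinning all libraries to the depth of the shallowest (edgeR adjusted p = 0.0557). A fit with an offset for transcript length in each library, chosen after seeing the data, gave a log2 fold change of -2.40 for Rps29 in place of -2.68 and -1.66 for Rps28, with both still called.

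Transcript length moved with the difference over the whole table. Of the 150 genes with a canonical transcript of at most 500 bases, 20% were lower and 5.33% higher, with a median log2 fold change of -0.34. Of the 705 genes of over 500 and up to 1000 bases, 25.4% were lower and 3.69% higher. Above 8000 bases, 6.92% of 925 genes were lower and 19.2% higher, with a median of 0.0875. The C3 library at week 9 went the other way, with a median deviation of 0.656 for the shortest genes, where the other C3 libraries were between -0.434 and -0.0888. Of the 81 ribosomal protein genes 43 were lower and 1 higher (median -0.559), and 37 were lower with the length offset. The 37 of them under 1000 bases had a median of -0.674 with 25 lower, and the 44 longer ones a median of -0.401 with 18 lower, where all genes of over 1000 and up to 2000 bases had a median of -0.0586. Whether the length of transcripts took part in these falls was not tested beyond the offset. The study's methods give a lower bound of the RNA quality number for all samples and no value per library.

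**Figure D2:**
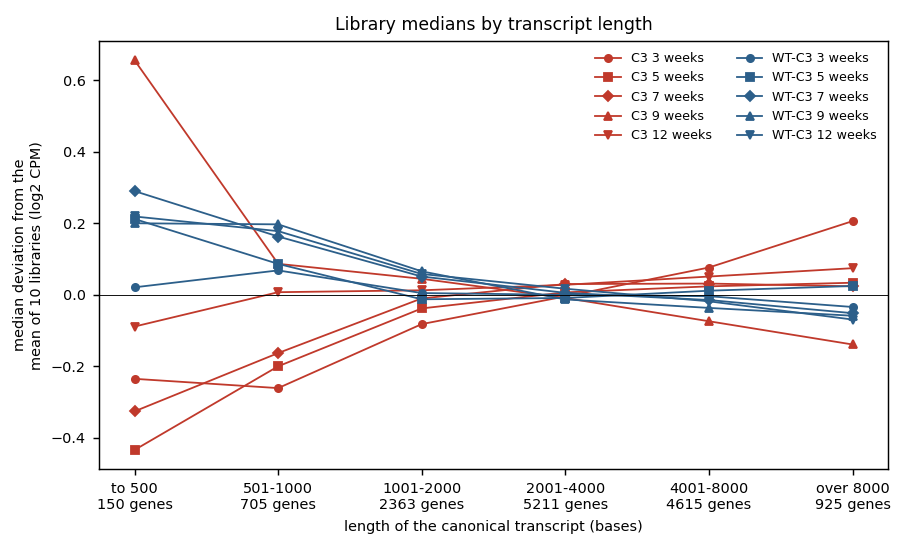
Median deviation from the mean of the 10 libraries (vertical axis, log2 CPM) in 6 classes of canonical transcript length (horizontal axis, bases), with 1 line per library. For the shortest genes the C3 library at week 9 lies at 0.656 and the other C3 libraries below 0, while the WT-C3 libraries lie above 0.

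Of the 25 proteins of the myelin sheath tested, 7 were lower and 5 higher, with a median log2 fold change of -0.03 that turned to 0.0475, and the counts to 7 and 8, with library size as the only scaling. Mouse Pmp22 (ENSMUSG00000018217, chromosome 11 from 63019718 to 63050600) was at 11230, 11100, 11290, 9377 and 8425 CPM in C3 and at 28730, 25910, 21780, 21330 and 17190 CPM in WT-C3. All C3 libraries were under all WT-C3 libraries, and the fitted log2 difference was -1.16 with an SE of 0.16 (edgeR adjusted p = 0.000548). The members called lower also included Ugt8a (-1.33) and Fa2h (-0.56), which make galactolipids, the proteolipid Mal (-0.63), the tetraspanin Cd9 (-0.50) and Drp2 (-0.46), a dystrophin relative of the outer Schwann cell membrane. The sum over the list ran from 55810 to 80430 CPM in C3 and from 85310 to 142900 CPM in WT-C3.

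Not all of the sheath genes went down. The adhesion protein Mag, the connexin Gjc3, the node protein gliomedin (Gldn), Ncmap and the scaffold Pals2 were higher, by 0.44 to 0.78 on the log2 scale. Gjc3 was at 866, 600, 534, 512 and 422 CPM in C3 and at 495, 384, 297, 284 and 245 CPM in WT-C3, higher at each age although the groups overlapped. These rises rested on few libraries, since 3 of the 5 were left without the C3 library at week 3 or 5 and 2 without any 1 of the WT-C3 libraries at weeks 7, 9 and 12, when Gjc3 had adjusted p values of 0.0504 to 0.0591. Mag lost its call without any 1 of 8 libraries, all but those of C3 at 12 weeks and of WT-C3 at 3 weeks, with adjusted p values of 0.0559 to 0.0914. For Mbp the log2 fold change was -0.38 (edgeR adjusted p = 0.0864), for periaxin (Prx) 0.07 and for the connexin Gjb1 0.20, and none of them passed the threshold.

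By difference in mean CPM, the rises that weighed most after the transgene included those of the basal lamina proteoglycan perlecan (Hspg2), the kinase Aatk, the lipid carriers Apod and Apoe, the filament vimentin (Vim), the spectrin Sptbn5, Serinc5, the linker plectin (Plec) and the matrix protein Emid1. Emid1 had the largest fold among them, 5.19, with 590, 479, 408, 518 and 261 CPM in C3 and 150, 106, 73.4, 55.7 and 50.04 CPM in WT-C3. Hspg2 was at 2172 to 3443 CPM in C3 and at 1143 to 2122 CPM in WT-C3, and Serinc5 at 579 to 823 against 224 to 305 CPM. Apod lost its call without the C3 library at week 5 (adjusted p = 0.0522). Vim did so without any 1 of the C3 libraries at weeks 5 and 7 and the WT-C3 libraries at weeks 5 and 7 (0.0534 to 0.0705). Among the falls that weighed most beside Pmp22, Mal, Ugt8a and Drp2 were Ogn, a matrix proteoglycan at 725 to 1084 CPM in C3 and 1685 to 2115 CPM in WT-C3, the noncoding RNA Malat1 (-0.37) and the lipid enzymes Scd2, Scd1 and Hmgcs1. The 20 enzymes of cholesterol synthesis took 0.317% ± 0.0501 of the counts in C3 against 0.640% ± 0.180 for WT-C3 (SD, n = 5; exact two-sided permutation p = 0.00794, the smallest that 5 against 5 allows, and 0.0238 adjusted over the 3 shares compared).

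**Figure D3:**
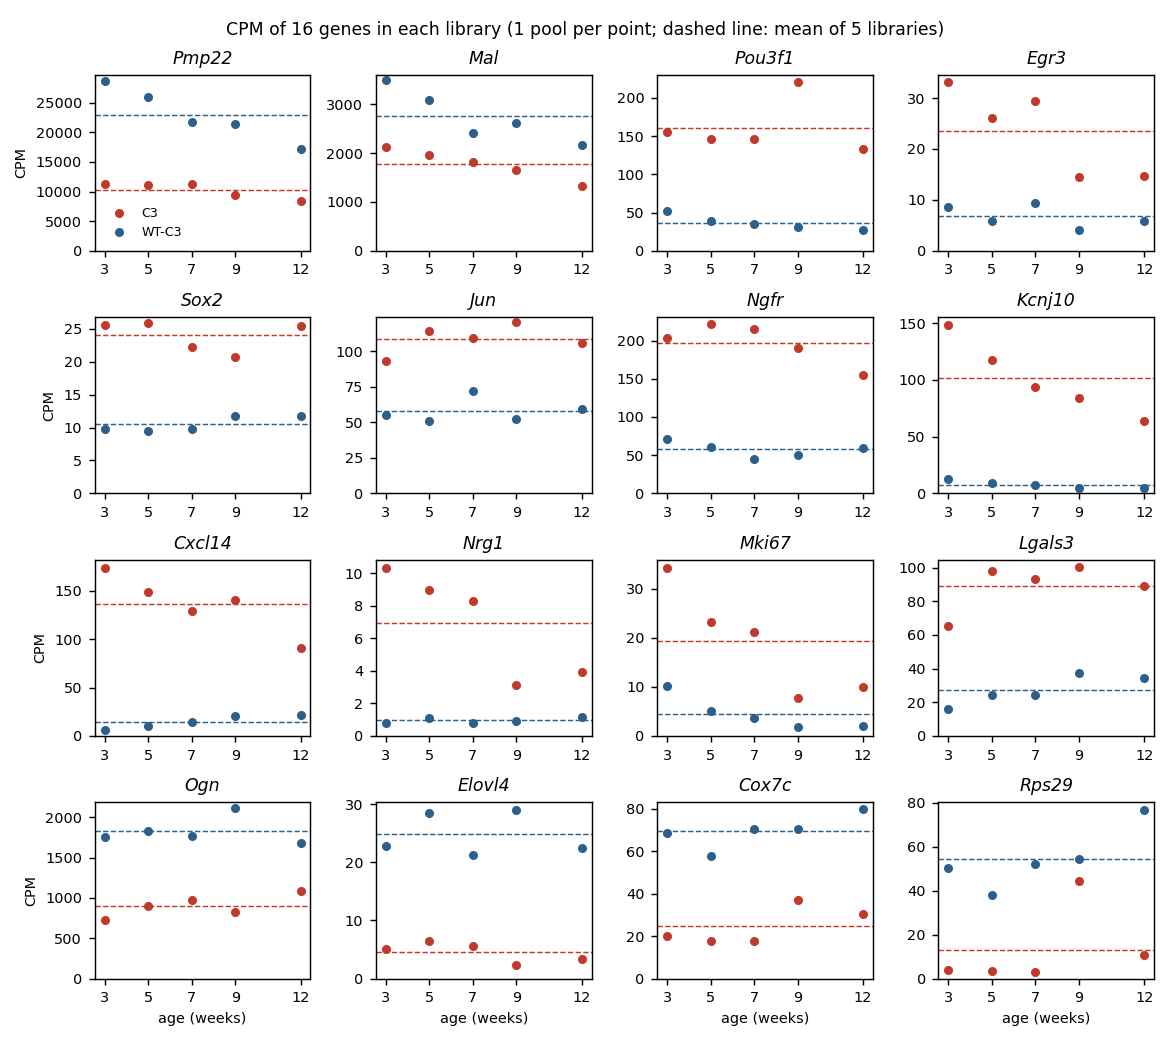
CPM (vertical axes) of 16 genes by age in weeks (horizontal axes), with 1 point per library, red for C3 and blue for WT-C3, and a dashed line at the mean of each group. Cxcl14 starts at 174 CPM in C3 and 5.85 in WT-C3 at 3 weeks, and the C3 point of Rps29 at 9 weeks lies within the WT-C3 range.

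Of 18 transcription factors and cofactors of myelination tested, 7 were higher and 1 lower, with a median log2 fold change of 0.387. Pou3f1 (ENSMUSG00000090125, chromosome 4 from 124550600 to 124554448), the POU factor of the promyelinating stage, was at 156, 146, 146, 221 and 133 CPM in C3 and at 52.5, 38.6, 34.9, 31.3 and 26.8 CPM in WT-C3. It was 4.32-fold higher with no overlap (log2 fold change 2.11, SE 0.18, edgeR adjusted p = 3.8e-05). Its relative Pou3f2 rose 2.29-fold. Egr3 (ENSMUSG00000033730, chromosome 14 from 70314350 to 70320063), a zinc finger factor of the Egr family, was at 33.2, 26.2, 29.5, 14.4 and 14.7 CPM in C3 and at 8.61, 5.79, 9.41, 4.08 and 5.88 CPM in WT-C3, a 3.62-fold rise. Sox10, which Schwann cells need at all stages, was at 525 to 738 CPM in C3 and at 386 to 447 CPM in WT-C3 (1.5-fold). The Egr cofactors went opposite ways, with Nab2 1.48-fold higher and Nab1 1.47-fold lower. For Egr2, the factor that switches on myelin genes, a log2 fold change of 0.41 missed the threshold (SE 0.16, edgeR adjusted p = 0.0872) and the groups overlapped.

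Of 12 genes known to hold myelination back, 6 were higher and none was lower, with a median log2 fold change of 0.575. Sox2 was at 25.6, 26.0, 22.3, 20.7 and 25.4 CPM in C3 and at 9.77, 9.47, 9.75, 11.8 and 11.8 CPM in WT-C3. Jun was at 93.0, 114, 109, 120 and 106 CPM in C3 and at 54.9, 50.8, 71.8, 52.2 and 59.5 CPM in WT-C3. Both rose without overlap, Sox2 2.3-fold (edgeR adjusted p = 3.8e-05) and Jun 1.87-fold (0.000189). Sox4 was 2.73-fold, the helix-loop-helix inhibitor Id2 2.3-fold and the receptor Notch1 1.61-fold higher. Hmga2, a chromatin protein, was 2.76-fold higher, but lost its call without the C3 library at week 3 or the WT-C3 libraries at weeks 9 and 12 (0.05 to 0.056). After thinning all libraries to the depth of the shallowest, its log2 fold change was 0.875 (edgeR adjusted p = 0.199). In the list of AP-1 and early response genes, 7 of 18 were higher and none lower. Fos was 3.04-fold, Fosl2 1.49-fold and the stress factor Atf3 1.52-fold higher, each without overlap, while 4 of the list were left without the WT-C3 library at week 9.

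Of 29 genes known to rise in Schwann cells after injury 20 were tested, of which 12 were higher and 1 lower, and the median log2 fold change of the 20 was 1.61. Ngfr (ENSMUSG00000000120, chromosome 11 from 95459638 to 95478561), the low affinity neurotrophin receptor, was at 203, 222, 215, 190 and 155 CPM in C3 and at 71.8, 60.7, 45.2, 50.5 and 59.3 CPM in WT-C3 (3.43-fold, edgeR adjusted p = 2.3e-05). Gfap, an intermediate filament of glia, was at 15.5 to 31.9 CPM in C3 and at 3.15 to 5.88 CPM in WT-C3. Runx2, a transcription factor, rose 5.08-fold, the semaphorin Sema4f 5.85-fold, the cytokine Clcf1 4.05-fold, the engulfment receptor Megf10 2.58-fold and the chemokine Cxcl10 3.56-fold. In each of these genes every C3 library was above every WT-C3 library. The cytokine Lif had a log2 fold change of -0.34 and was not called, and Dkk3, a secreted glycoprotein, was lower. The counts of this list stayed between 12 and 13 higher genes without any 1 library. Since repair genes were examined earlier in these data, their direction is not independent evidence.

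Of 19 genes of immature and nonmyelinating Schwann cells, 8 were higher and 2 lower. The members not on the lists above were the neuregulin receptor Erbb3 (1.64-fold higher), the adhesion proteins L1cam and Ncam1, the receptor Gfra1, the integrin subunit Itgb8 and, in the other direction, Cdh2 (N-cadherin) and Itga1. Cdh2 was at 53.9 to 65.5 CPM in C3 and at 91.9 to 114 CPM in WT-C3.

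Growth factors went both ways, with 5 of 28 secreted factors higher and 5 lower (6 and 3 with library size as the only scaling). Nrg1 (ENSMUSG00000062991, chromosome 8 from 32303906 to 33374825), the neuregulin that acts on ErbB receptors, was at 10.3, 8.96, 8.28, 3.16 and 3.90 CPM in C3 and at 0.769, 1.096, 0.794, 0.941 and 1.15 CPM in WT-C3. It was 7.55-fold higher with no overlap (edgeR adjusted p = 0.000162). Btc, Shh, Il34 and Tgfb1 rose with it, whereas Tgfa (-0.63), Bmp7 (-0.60), Fgf1 (-0.51), Tgfb3 (-0.39) and Fgf2 (-0.34) fell. Tgfb1 lost its call after thinning to the depth of the shallowest library (log2 fold change 0.195, edgeR adjusted p = 0.509). The number of falls was 2 without the C3 library at week 5 or 7, and 3 without that of 3 weeks or any 1 of the WT-C3 libraries at weeks 7, 9 and 12. In the ErbB pathway 5 of 16 genes were higher and 3 lower. The receptors Erbb3 and Erbb2 (1.54-fold) rose, Erbb4 fell 2.1-fold from 8.12 to 11.3 CPM in WT-C3 to 4.06 to 5.43 CPM in C3, the secreted protein Lgi4 rose by 0.55 and its receptor Adam22 fell by 0.74 on the log2 scale. Hedgehog signalling showed a rise of the ligand Shh without called changes of the usual readouts Gli1 (0.20) and Ptch1 (0.06). In that list 2 of 14, Shh and the inhibitor Sufu, were higher and 1, the coreceptor Gas1, lower by 2.02-fold, and Dhh, the ligand that Schwann cells make, was at 0.25 with no call. For Notch signalling, 4 of 20 genes were higher (1 after thinning) and none lower, with 3 lower without the C3 library at week 12.

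Genes of the cell cycle were higher in 21 of 32 cases and lower in none, and the median log2 fold change was 1.08. Mki67, a marker of cycling cells, was at 34.3, 23.3, 21.2, 7.66 and 10.0 CPM in C3 and at 10.2, 5.09, 3.63, 1.88 and 2.06 CPM in WT-C3. C3 was higher at each age, though the oldest C3 libraries overlapped the youngest WT-C3 libraries. Top2a rose 3.84-fold, the mitotic genes Cenpf and Ccnb1 5.31-fold and 4.18-fold, and Ccnd1, the cyclin that drives entry into the cycle, was at 332, 389, 330, 247 and 204 CPM in C3 against 134 to 191 CPM in WT-C3. Of the licensing factors, Mcm5 (0.80 on the log2 scale), Mcm6 (0.32) and Mcm7 (0.27) were higher, while Mcm2, Mcm3 and Mcm4 and the replication clamp Pcna had log2 fold changes between -0.15 and 0.37 and no call. The number of higher genes was 14 without the C3 library at week 5 and 9 when all libraries were thinned to the depth of the shallowest.

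**Figure D4:**
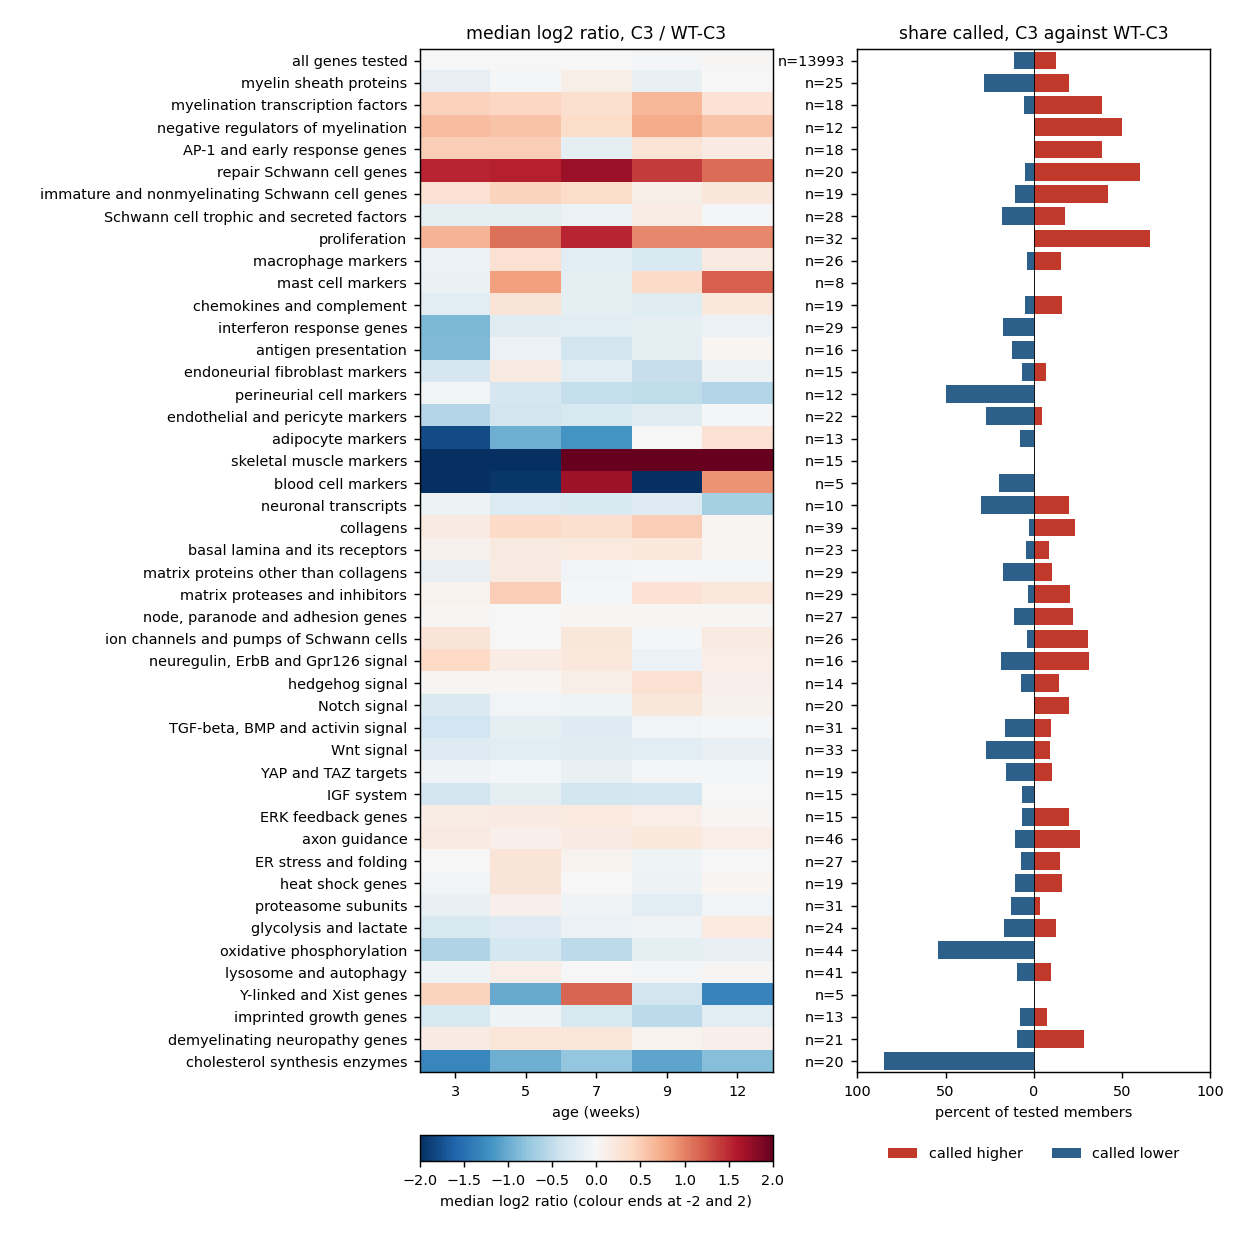
Left, median log2 ratio of C3 to WT-C3 at each age (columns, weeks) over the tested members of each gene list (rows), on a colour scale that ends at -2 and 2; right, percent of tested members called higher (red) or lower (blue), with the number tested. Repair genes and cell cycle genes are higher at all 5 ages, cholesterol enzymes are lower, and muscle and blood markers change direction between ages.

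Of 26 macrophage markers 4 were higher and 1 lower, with a median log2 fold change of -0.07 that turned to 0.00486 with library size as the only scaling. The 4 rises, near the share over all genes, were those of Lgals3, Trem2, Mertk and Cx3cr1, of which Trem2 and Mertk are receptors for the uptake of debris. Cx3cr1 lost its call after thinning to the depth of the shallowest library (log2 fold change 0.663, edgeR adjusted p = 0.0841), which left 3 higher. Lgals3 (ENSMUSG00000050335, chromosome 14 from 47605208 to 47623624), a galectin, was at 65.6, 98.2, 93.2, 101 and 89.2 CPM in C3 and at 16.2, 24.1, 24.2, 37.3 and 34.4 CPM in WT-C3 (3.26-fold, edgeR adjusted p = 0.000236). Trem2 was at 6.64 to 9.57 CPM against 3.03 to 4.195 CPM and Mertk 1.8-fold higher, neither with overlap. The defining markers Csf1r (-0.08) and C1qa (-0.10) were not called, and the sum of the list was 1230 to 1564 CPM in C3 and 1092 to 1808 CPM in WT-C3. The scavenger receptor Cd163 was called lower (log2 fold change -0.70, edgeR adjusted p = 0.0441) but lost the call without any 1 of the C3 libraries at weeks 3, 7, 9 and 12 or the WT-C3 libraries at weeks 7, 9 and 12 (0.0567 to 0.104). None of the 16 lymphocyte and neutrophil markers passed the filter, and their sum was 2.31 to 4.44 CPM in C3 and 1.33 to 3.53 CPM in WT-C3. No mast cell marker of 8 was called.

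Of 19 chemokines and complement genes 3 were higher (Cxcl14, Cxcl10 and Cx3cl1) and 1, complement component C2, was 2.57-fold lower. After thinning to the depth of the shallowest library, Cx3cl1 (edgeR adjusted p = 0.253) and C2 (0.0588) lost their calls. Interferon response genes were lower in 5 of 29 cases and higher in none, with a median log2 fold change of -0.29. Ifi44, Ifit1, Ifit2, Rsad2 and Rtp4 were the ones that fell, Ifi44 from 2.83 to 4.46 CPM in WT-C3 to 1.35 to 2.33 CPM in C3. The median ratio was -0.901 at 3 weeks and between -0.24 and -0.121 at the later ages. The number of falls was 1 after thinning to the depth of the shallowest library. It was 3 without the C3 library at week 5 or the WT-C3 library at week 12, and 8 without the C3 library at week 12. Rtp4 lost its call after thinning (edgeR adjusted p = 0.177). It also did so without the C3 library at week 5 or the WT-C3 libraries at weeks 9 and 12 (0.0506 to 0.0582). In antigen presentation, B2m and H2-DMa were lower, of 16 tested.

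Of 39 collagens tested, 9 were higher and 1, Col23a1, lower. The members that rose were Col27a1 (3.23-fold), the cartilage collagens Col2a1 (3-fold), Col9a1, Col9a3 and Col11a2 (2.73-fold), and Col7a1, Col12a1, Col16a1 and Col18a1. Col27a1 was at 265, 259, 215, 224 and 143 CPM in C3 and at 78.5, 75.1, 60.6, 50.01 and 77.5 CPM in WT-C3, with no overlap. The abundant fibrillar collagens were not called, with 0.43 for Col1a1, 0.20 for Col1a2 and 0.14 for Col3a1. A count of 14 higher collagens was found without the C3 library at week 12. In the basal lamina, Hspg2 and the laminin chain Lama5 rose and the sarcoglycan Sgce fell, out of 23 genes, and 5 were higher without the C3 library at week 12 and 4 without the WT-C3 library at week 3. Of 29 other matrix proteins, tenascin C (Tnc), Ltbp2 and Thbs2 were higher, and the elastic fibre proteins Fbln5 and Mfap5, the proteoglycans Ogn and Fmod, and Vtn were lower. Tnc was at 95.8, 77.9, 57.9, 27.0 and 24.4 CPM in C3 and at 20.0, 14.6, 13.6, 11.8 and 14.7 CPM in WT-C3, and Fbln5 at 103 to 116 against 188 to 245 CPM. Among 29 matrix proteases and inhibitors 6 were higher and 1, Adamts5, lower, with the protease inhibitors Timp1 2.48-fold and Serpine2 1.74-fold higher. The higher count of that list was 11 without the C3 library at week 12 or the WT-C3 library at week 3.

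Channels and pumps of Schwann cells were higher in 8 of 26 cases and lower in 1. Beside Kcnj10 these included the potassium channels Kcna1 (2.46-fold) and Kcna6 (1.61-fold), the calcium channel Cacna1h (2.75-fold), the pump subunit Atp1b1, Gjc3 and the creatine transporter Slc6a8, and the fall was that of Kcnj2. Kcna1 was at 440, 247, 158, 141 and 195 CPM in C3 and at 94.9, 89.3, 77.0, 146 and 75.3 CPM in WT-C3, so the groups met at 9 weeks. Of 27 node, paranode and adhesion genes 6 were higher and 3 lower, with the membrane linker Ezr (2.05-fold) and the adhesion protein Cadm1 (1.97-fold) rising and the catenin Ctnnd1 falling by 1.81-fold. The higher count of this list was 3 without any 1 of the WT-C3 libraries at weeks 7, 9 and 12. The adhesion proteins of the node Nfasc, Cntn1 and Cntnap1 were not called.

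Axon guidance genes were higher in 12 of 46 cases and lower in 5. The plexin receptors Plxnb3 (2.18-fold), Plxna1 (1.72-fold), Plxnd1 (1.66-fold) and Plxna4 were among the rises, with Plxnb3 at 482, 439, 353, 336 and 260 CPM in C3 and at 211, 205, 151, 146 and 147 CPM in WT-C3. The secreted semaphorins Sema3c and Sema3d, the membrane semaphorin Sema5a (2.2-fold), Slit2 and Efnb3 fell. In the Wnt list 3 of 33 were higher and 9 lower (5 and 5 with library size as the only scaling), a lower count of 5 without any 1 of the C3 libraries at weeks 3 and 5 and the WT-C3 libraries at weeks 9 and 12. The receptor Lgr6 rose 2.43-fold, while the Wnt agonist Rspo1 fell 2.9-fold from 23.6 to 53.4 CPM in WT-C3 to 10.6 to 18.9 CPM in C3, and the antagonist Sfrp1 and the receptor Fzd3 also fell. Axin2, a usual readout of the pathway, was at 0.04 with no call. For the TGF-beta family the counts were 3 higher and 5 lower of 31, turning to 4 and 2 with library size as the only scaling, and the lower count was 1 without the C3 library at week 5 or 7 and 2 without that of 3 weeks or any 1 of the WT-C3 libraries at weeks 7, 9 and 12. Of 19 YAP and TAZ targets 2 were higher and 3 lower, of 15 genes of the IGF system 0 and 1, and of 15 ERK feedback genes 3 and 1. No YAP and TAZ target was higher without the C3 library at week 3 or 5 or the WT-C3 library at week 7 or 9, and with library size as the only scaling 4 were higher and 3 lower. Yap1 fell 1.35-fold and Igfbp7 1.59-fold, and the phosphatase Dusp4 rose 1.74-fold, each without overlap. Without the C3 library at week 12, 6 ERK feedback genes were higher and 3 genes of the IGF system lower, and without that of 9 weeks 5 ERK feedback genes were higher.

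Genes of oxidative phosphorylation encoded in the nucleus were lower in 24 of 44 cases and higher in none, with a median log2 fold change of -0.327. Cox7c, a subunit of cytochrome oxidase, was at 20.2, 17.7, 17.9, 37.0 and 30.4 CPM in C3 and at 68.6, 57.9, 70.2, 70.4 and 79.8 CPM in WT-C3 (2.96-fold lower, edgeR adjusted p = 0.000278). Ndufa4, at 20.2 to 37.8 against 42.9 to 60.8 CPM, and Uqcrb, at 13.9 to 24.8 against 31.6 to 35.9 CPM, did not overlap either. Of the 18 genes under 1000 bases 14 were lower (median -0.735), and of the 26 longer ones 10 were lower (median -0.167), while all genes tested of over 500 and up to 1000 bases had a median of -0.24. With the length offset 11 of the shorter and 8 of the longer genes were lower, and with library size as the only scaling 16 of the list were. The count was 14 without the C3 library at week 5 and 15 without that at week 7. The share of counts on mitochondrially coded genes was 2.04% ± 0.490 in C3 against 2.37% ± 0.305 for WT-C3 (SD, n = 5; exact two-sided permutation p = 0.246, also after adjustment over the 3 shares compared).

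For glycolysis and lactate, 3 of 24 genes were higher and 4 lower. The glucose transporters went opposite ways, with log2 fold changes of 1.07 for Slc2a3 and -0.56 for Slc2a1, both called. Slc16a1, the lactate transporter of Schwann cells, was at 108 to 155 CPM in C3 and at 193 to 273 CPM in WT-C3. Of genes for stress of the endoplasmic reticulum 4 of 27 were higher and 2 lower, near the shares over all genes, with log2 fold changes of 0.15 for the chaperone Hspa5 and 0.19 for Ddit3, neither called. The higher count of that list was 2 without any 1 of the C3 libraries at weeks 3 and 5 and the WT-C3 libraries at weeks 7 and 9, and 1 after thinning to the depth of the shallowest library. Of 19 heat shock genes 3 were higher and 2 lower (0 and 2 after thinning), and Hspa4l fell from 96.02 to 129 CPM in WT-C3 to 49.1 to 62.0 CPM in C3. In the proteasome 1 of 31 subunits was higher and 4 lower, by at most 0.36 on the log2 scale, which turned to 2 and 1 with library size as the only scaling, and 2 were lower without any 1 of the libraries of 3 and 7 weeks, the C3 library at week 5 or the WT-C3 libraries at weeks 9 and 12. Of 41 lysosome and autophagy genes 4 were higher and 4 lower (8 and 2 with library size as the only scaling), and 2 were lower without any 1 of the C3 libraries at weeks 5 and 7 and the WT-C3 libraries at weeks 7, 9 and 12. Npc2, which carries cholesterol out of the lysosome, fell 1.74-fold, at 191 to 227 CPM in C3 against 325 to 414 CPM in WT-C3, and the kinase Ulk1 rose 1.4-fold.

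Markers of the other cells of nerve were examined as lists. Perineurial markers were lower in 6 of 12 cases and higher in none (median -0.442), among them Lypd2 (2.43-fold), the tight junction protein Cldn1 (1.49-fold) and Slc2a1. The sum of that list was 1922 to 2839 CPM in C3 and 2048 to 3348 CPM in WT-C3, and 3 were lower with library size as the only scaling. Markers of endothelial cells and pericytes were lower in 6 of 22 cases and higher in 1. The endothelial transporter Mfsd2a was at 58.7 to 79.6 CPM in C3 and 80.2 to 132 CPM in WT-C3, and the smooth muscle gene Tagln at 162 to 302 against 311 to 454 CPM, while Pecam1 (-0.23) and Cdh5 (-0.25) were not called. That lower count was 3 without the C3 library at week 5 and 11 without that of 12 weeks. Of 15 fibroblast markers Osr2 was higher and Sox9 lower, and both lost the call without the C3 library at week 5 (0.0599 and 0.052). Adipocyte markers had a median of -0.608 with 1 of 13, Lpl, called lower. Lpl lost the call without any 1 of the libraries other than the C3 library at week 12 (0.0502 to 0.116), and without that library 6 of the list were lower. Skeletal muscle markers summed to between 233 and 8012 CPM in C3 and between 47.6 and 5044 CPM in WT-C3, and none of 15 was called. Blood markers summed to 49.6 to 374 CPM in C3 and 131 to 1570 CPM in WT-C3, and the platelet gene Pf4 was the 1 of 5 called, 2.32-fold lower. Pf4 lost that call after thinning to the depth of the shallowest library (edgeR adjusted p = 0.0722). The part of these cells in the other results was not tested.

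Neuronal transcripts, which can reach nerve RNA from axons, were lower in 3 of 10 cases (Snap25, Prph and Nefl) and higher in 2 (Tubb3 and Thy1). After thinning to the depth of the shallowest library none of the 3 was called lower, with log2 fold changes of -0.40 for Snap25 (edgeR adjusted p = 0.618), -1.02 for Prph (0.056) and -0.71 for Nefl (0.0651). Thy1 lost its call without any 1 of the C3 libraries at weeks 5 and 7 and the WT-C3 libraries at weeks 3, 5, 9 and 12 (0.0503 to 0.0787). Nefl did so without any 1 of the C3 libraries at weeks 5 and 7 and the WT-C3 libraries at weeks 5, 9 and 12 (0.0529 to 0.0655). Of the 21 genes mutated in demyelinating neuropathies, 6 were higher, led by the exchange factor Plekhg5 (1.64-fold) and Sbf1 (1.32-fold), and 2 lower, among them Nefl, with 3 higher without the C3 library at week 5. Among 13 imprinted growth genes the noncoding RNA H19 fell 3.06-fold. It was at 177, 94.1, 98.4, 64.9 and 76.7 CPM in C3 and at 627, 306, 293, 168 and 187 CPM in WT-C3, and was lower at each age. None of the 5 Y-linked and Xist genes was called, and they varied between pools of both sexes.

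Whether the C3 difference changed with age was tested as a product of group and age. No gene was called (0% of 13993), with 617 positive and 219 negative slopes at an unadjusted p under 0.05. The smallest p was that of Cxcl14, whose log2 ratio of C3 to WT-C3 ran from 4.87 at 3 weeks to 2.09 at 12 weeks, a slope of -0.295 per week (edgeR adjusted p = 0.218). Among the positive slopes, Hk2 went from -0.439 to 0.920 and the muscle myosin Myh1 from -1.78 to 6.67. In the simulated data 71% of 100 slopes of 0.3 per week and 13% of 100 slopes of 0.15 per week were found, so such slopes can be missed. Those data took the change with age within a group as noise and left all other genes unchanged. The shares found may therefore differ in the real libraries.

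A slope with age shared by both groups was called rising for 592 genes (4.23%) and falling for 518 genes (3.7%). Of the 25 myelin sheath proteins 15 fell with age and none rose. The collagens fell in 19 of 39 cases, Col1a1 from 6486 to 1780 CPM in C3 and from 6287 to 1730 CPM in WT-C3, and the protease Adamts20 fell by 0.188 per week (edgeR adjusted p = 0.00053). Cell cycle genes fell in 11 of 32 cases and cholesterol enzymes in 14 of 20. Antigen presentation genes rose in 8 of 16. Beside Acsm3, which rose by 0.414 per week, the genes with the smallest p among the rising ones included the ribosomal gene Rpl21 and Etnppl. Of the genes called higher in C3, 153 fell and 4 rose with age, and of those called lower, 169 rose and 54 fell. The shared slopes rested on the ends of the range, with 153, 157 and 193 rising genes without the C3 library at week 12, the WT-C3 library at week 3 and the C3 library at week 3, and 202, 184 and 295 falling genes in the same order. The rising count was 354 without the C3 library at week 5.

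The C3 change was set beside the C22 change for the named genes, with a test of the difference in 1 fit of the 20 libraries. The difference was called for 1687 genes (12.1%). Strain and transgene copies change together between the models and cannot be told apart. Among the 15 largest rises in C3, 7 differed. Tubb3 was 7.12-fold higher in C3 and had a log2 fold change of -0.75 in C22 (difference -3.60, SE 0.26, edgeR adjusted p = 2.85e-08). Gadl1 (-0.79 in C22) and Slc17a8 (0.74 in C22) were also smaller there, and for Shh the 5 C22 libraries had no counts, where the WT-C22 libraries had 240 in all. For Ppp2r2c the log2 fold change was larger in C22, at 6.08. Piwil4 (6.33 in C22), Kcnj10 (5.30) and Cxcl14 (4.37) had differences with adjusted p values of 0.0529, 0.0517 and 0.105. Of the 15 largest falls 10 differed. Wt1 (-5.65 in C22), Elovl4 (-4.51) and Nalf2 (-5.43) had larger negative changes in C22. Rps29, Rps28, Rpl38, Atp5me and Bc1 had positive log2 fold changes of 0.73 to 1.87 in C22 in place of falls. Mouse Pmp22 had a log2 fold change of -2.43 in C22 (difference -1.28, edgeR adjusted p = 0.00346).

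**Figure D5:**
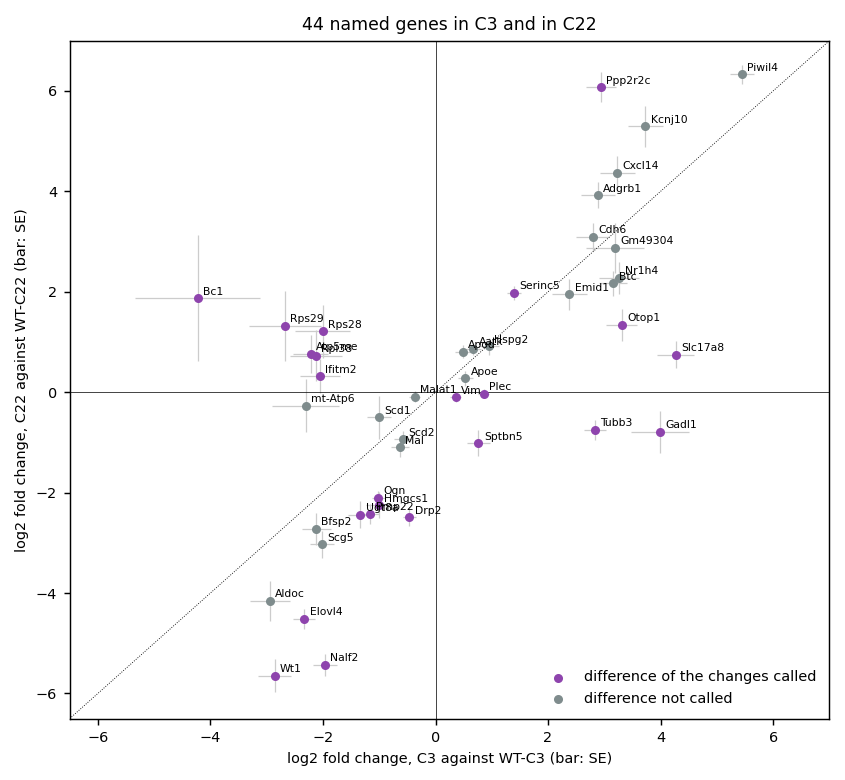
Log2 fold change in C22 against WT-C22 (vertical axis) by that in C3 against WT-C3 (horizontal axis) for 44 named genes, with bars for the SE, purple where the difference of the changes was called, and a dotted line of equal change. Shh, Cyp2j13 and Etnppl, with 0 to 2 counts in C22, are left out; Piwil4 lies at 5.45 and 6.33, and Tubb3 and Gadl1 lie right of 0 and below 0.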

How the data were processed

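The authors pooled the nerves of 4 to 5 animals per library, made poly(A) libraries and, per the labels and the study's methods, used FastQC 0.11.9, cutadapt 2.10, STAR 2.7.5a, UMI-tools 1.1.1 and HTSeq 0.12.4 on GRCm39 with the human transgene locus added. The deposited values were raw counts per gene, and the HTSeq strand setting was not given in the sources used here, so a gene and an antisense neighbour may share reads. The table held 56956 genes (56941 mouse, 15 human) and 5 summary lines, which were left out.

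Counts were tested with edgeR 4.0.16 in R 4.3.3, with TMM scaling, quasi-likelihood fits and a Benjamini-Hochberg threshold of 0.05 over 13993 genes; the SE is the log2 fold change divided by the square root of F. DESeq2 1.42.0 and a likelihood ratio test were alternatives. Fold changes came from the group term alone (8 residual degrees of freedom). The difference of slopes came from a model of group, age and their product, and the shared slope from group and age without the product. The members, 46 gene lists and tests were chosen with earlier results of these data known. Named genes were the 15 largest rises and falls at 5 CPM or more with 1 direction at all ages, the 10 largest differences in CPM each way, the transgene and Pmp22, the 4 list members of smallest p, the 10 smallest slope p values each way, and members whose role the text needed. The code was tested on simulated counts: for C3 against WT-C3 (13993 genes) 31.8%, 67.2% and 88.1% of changes of 0.5, 1 and 1.5 on the log2 scale were recovered. Gene positions came from GENCODE on GRCm39. Same-numbered libraries share an age and not animals. Of the genes tested, 5 are not reported here by name, and the counts over lists and over all genes include them.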

Additional observations from a re-analysis of the deposited data

Results flagged for a closer look

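Among 110 groups of 5 libraries, 8 held a value whose gap to the nearest other library was large for the range of the group, and chance alone gives about 1 in 20. The C3 library of 9 weeks was the high one for Bc1 (21.19 CPM, others 0.1791 to 0.6838), Rps29 (44.18, others 2.984 to 10.92), mt-Atp6 (18.03, others 1.596 to 4.275) and Scg5 (5.86, others 1.926 to 3.044), and the low one for the share of counts on mitochondrially coded genes (1.206%, others 2.081% to 2.423%). The C3 library of 12 weeks was high for Scd1 (1865 CPM, others 1127 to 1291). In WT-C3 the library of 12 weeks was high for Atp5me (22.96 CPM, others 13.94 to 15.85) and that of 3 weeks low for Bfsp2 (8.384 CPM, others 15.21 to 16.75).

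The log2 change in C22 minus that in C3 passed the edgeR test of the difference (adjusted p in parentheses) for 6 of the 14 largest rises reported here, 10 of the 15 largest falls and Pmp22. Of the rises, it was -3.531 for Slc17a8 (1.14e-05), -4.788 for Gadl1 (1.95e-05), -1.972 for Otop1 (0.00795), 3.133 for Ppp2r2c (1.92e-05) and -3.602 for Tubb3 (2.85e-08). The value of -10.8 for Shh (5.58e-05) depends on the prior count, since C22 had 0 counts. Of the falls, it was negative for Wt1 (-2.798, 0.000202), Elovl4 (-2.184, 7.67e-06), Nalf2 (-3.467, 7.59e-08) and Cyp2j13 (-5.924, 9.63e-06), the last with 2 counts in C22. It was positive for the genes of short transcripts, namely Bc1 (5.803, 0.0327), Rps29 (3.931, 0.0138), Atp5me (2.969, 0.00119), Rpl38 (2.81, 0.016), Ifitm2 (2.356, 0.00292) and Rps28 (3.186, 0.00881). For Pmp22 it was -1.277 (0.00346). The strains of the models differ as well, and strain and transgene cannot be told apart.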

How the results depend on the processing

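No call of a named gene turned to the opposite direction in any alternative. Among named genes not called the sign could change, as for C1qa, at -0.10 without the length offset and 0.05 with it. Of 209 named genes called, 152 kept the call throughout, and of 5746 alternatives for named genes 5469 kept their side of the threshold, 200 lost and 77 gained a call. Without the C3 library of 9 weeks 5 calls were lost. The counts of genes higher and lower in C3 were 949 and 877 after thinning all libraries to 2140142 counts, where the depth is lower by construction, and 1205 to 1906 and 1040 to 1777 without any 1 library. With library size as the only scaling 1034 genes were lower, the shared age slope rose for 1092, and the log2 change in C22 was above that in C3 for 1179 genes. That scaling turned the median log2 fold change from negative to positive for 6 lists, namely myelin sheath proteins, macrophage markers, matrix proteins other than collagens (0.00552), Notch (0.0207), YAP and TAZ targets (0.023) and glycolysis (0.0219), and the length offset did so for chemokines and complement (0.0501). With DESeq2 1926 genes were higher and 1946 lower in C3, so that lower calls outnumbered higher ones, as they did with age as a block. The product of group and age called 154 positive and 9 negative slopes with no filter on low counts, 1 and 2 with all 25 libraries, 0 and 1 with log2 of age, and 0 to 1 each without any 1 library. The shared slope called 898 rising and 924 falling genes with all 25 libraries, and 153 to 781 and 184 to 707 without any 1 library. The C22 difference called 491 to 832 higher and 796 to 1152 lower without any 1 library. The share of the 10 most abundant genes (-2.659 percentage points, adjusted p = 0.0834) ran from -3.326 to -1.904, with an exact permutation adjusted p of 0.0119 without the WT-C3 library of 12 weeks. With age as a replicate block 1807 genes were higher and 1884 lower, and the C22 difference was 800 and 1252. In that fit the lists that moved most were the basal lamina (8 higher), matrix proteases (12 higher), interferon response genes (10 lower) and the TGF-beta family (10 lower). The same-age libraries share only an age, and their deviations correlated at 0.364, -0.227, 0.083, 0.157 and 0.114 from 3 to 12 weeks. The length offset and the limit to transcripts of 1000 bases or more were chosen after seeing the data and gave 1722 and 1640, and 1632 and 1472. Causes were not tested.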
